A study of Mus musculus with 12 samples.

Results

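The genes described here encode heat shock proteins and J-domain proteins, 61 of the 23420 genes in a table of raw RNA-seq counts from 12 mouse kidneys. They were chosen by symbol (Hsp90, Hspa, Hspb, Hspd1, Hspe1, Hsph1 and Dnaja, Dnajb and Dnajc genes) among rows with at least 10 counts in at least 4 kidneys, a rule that uses no fold change but was set with earlier results of these data known. Of 74 symbols of this kind, 13 were left out, 7 of which had no count in any kidney. The 61 comprise 3 Hsp90 genes, 12 Hsp70 and Hsp110 genes, 4 genes with small heat shock protein symbols (Hspb1, Hspb2, Hspb8 and Hspb11), 3 mitochondrial chaperone genes and 37 J-domain genes (4 Dnaja, 10 Dnajb and 23 Dnajc). Hspb11 was placed by its symbol alone. The other 2 genes, Hspbp1 and Hspbap1, share only the symbol pattern. They encode a cofactor of Hsp70 and a protein named for binding a small heat shock protein. The filter on counts was passed most narrowly by Hspbap1, with 10 counts or more in 4 kidneys, and was missed most narrowly by Dnajc30 and Hspa12b, with that many in 3 kidneys.

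The 12 kidneys came from male C57BL/6J mice, 8 to 15 weeks old, with no transgene or deletion, and formed 3 groups of 4. The controls were kidneys removed at nephrectomy according to the methods, although the protocol field of the labels gives them the same 20 min of ischemia as the others, and the 8 ischemic kidneys were taken 24 h after reperfusion. In the methods, nephrectomy took the right kidney and the clamp was placed on the left one. Side, surgery and loss of the other kidney may thus differ along with ischemia and cannot be told apart from it. A change after ischemia below means a difference from these controls. On the use of anaesthesia, titles and group fields of the ischemic kidneys disagree, so the kidneys are called set A (anaesthetised by title but conscious by group field) and set B (the reverse), and no difference between them is read as an effect of anaesthesia. Each kidney is a separate sample by its label.

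Heat shock proteins are molecular chaperones that hold, fold or refold other proteins. Hsp70 proteins bind exposed hydrophobic stretches in a cycle of ATP hydrolysis that is started by J-domain proteins and ended by nucleotide exchange factors such as the Hsp110 proteins. Clients may pass on to Hsp90, while small heat shock proteins hold unfolded proteins without ATP. Separate members serve the cytosol, the endoplasmic reticulum (ER) and the mitochondria. Cytosolic stress raises the inducible members through heat shock factors, which bind heat shock elements made of inverted GAA units, and ER stress raises the ER members through the ER stress element. In the kidney, the proximal tubule, rich in mitochondria, is the segment best known for damage by ischemia.

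Promoter sequences are shown first, for some of the members whose windows held an element of the ER or heat shock response. RefSeq windows (GRCm38.p6, from 250 bases before to 50 after the start of transcription) were matched for 49 of the 61 genes. The rest, among them Hsp90aa1, Hsp90ab1, Hspa8, Hspa9 and Dnajc12, had no window and were not searched. The ER stress element, searched on both strands as CCAAT and CCACG with 9 bases of any kind between them, was found in 3 of these 49 (6.12%), against 37 of 27025 genes with a window (0.137%). The 3 genes were Hspa5, Hsp90b1 and Dnajc3, which encode the Hsp70, the Hsp90 and a J-domain protein of the ER. Their stretches follow 5′ to 3′ on the strand of the gene, with the element's fixed letters in capitals. They lie at chr2:34772000-34772068 on the plus strand, chr10:86705508-86705681 on the minus strand (with 2 matches, the later one on the opposite strand) and chr14:118937802-118937870 on the plus strand.
Hspa5: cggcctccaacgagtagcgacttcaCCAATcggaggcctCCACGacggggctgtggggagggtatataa
Hsp90b1: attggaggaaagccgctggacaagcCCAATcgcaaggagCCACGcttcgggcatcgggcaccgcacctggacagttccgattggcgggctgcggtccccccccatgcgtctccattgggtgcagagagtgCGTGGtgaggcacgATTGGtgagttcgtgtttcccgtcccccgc
Dnajc3: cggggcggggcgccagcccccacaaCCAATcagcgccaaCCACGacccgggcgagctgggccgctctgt

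A heat shock element of 3 units, searched as GAA, TTC and GAA in a row, or TTC, GAA and TTC, with 2 bases of any kind between units, was found in 4 of the 49 windows (8.16%), those of Dnajb6, Hspd1, Hspe1 and Hsph1, against 179 of all 27025 genes (0.662%). The shorter element of 2 units, GAA and TTC in either order with the same spacing, which the longer element contains, was found in 13 (26.5%), against 4587 genes (17.0%), so that a match to it says little. Hspd1 and Hspe1 are neighbours read in opposite directions and share 1 element, shown from the side of Hspe1 (chr1:55088034-55088101, plus strand). Dnajb6 (chr5:29735827-29735889, plus strand) is shown with it, and so are the 2 inducible Hsp70 genes, Hspa1a (chr17:34972228-34972285, minus strand) and Hspa1b (chr17:34959310-34959367, minus strand), whose stretches around the shorter element are identical. The longer element of Hsph1 lies after its start of transcription and is not shown, nor are the windows of other genes with the shorter element alone. Capitals mark the GAA and TTC units. A match describes the letters in the window and does not show that a factor bound there.
Hspe1: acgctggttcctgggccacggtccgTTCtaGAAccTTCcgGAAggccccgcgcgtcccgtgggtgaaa
Dnajb6: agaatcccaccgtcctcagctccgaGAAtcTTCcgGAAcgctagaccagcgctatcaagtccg
Hspa1a: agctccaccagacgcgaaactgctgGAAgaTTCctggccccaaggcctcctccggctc
Hspa1b: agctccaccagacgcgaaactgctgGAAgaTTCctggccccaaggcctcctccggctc

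The libraries held 15367342 to 44793350 counts, and 11664 genes were tested, all 61 chaperone genes among them. Values are counts scaled to the size of each library (CPM, with TMM factors), fold changes are on the log2 scale with their standard error (SE), and p-values are two-sided, from the quasi-likelihood test of edgeR, and adjusted (Benjamini-Hochberg) across the whole table, with a threshold of 0.05. All 6 markers of the proximal tubule fell in both ischemic sets, and their summed level was 6752 to 7544 CPM in control kidneys, 709 to 1293 CPM for set A and 401 to 1374 CPM for set B. Of 6 markers of tubular injury, 5 rose in each set, with sums of 232 to 279, 2417 to 2609 and 1995 to 2328 CPM. Set B replicate 4 stood apart from the other kidneys on the second principal component, and leaving it out is named below where it mattered. In whole kidney RNA, fewer cells of a type and less RNA per cell cannot be told apart.

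After ischemia more of the chaperone genes fell than rose. In set A, 5 of the 61 rose and 15 fell, against 10.5% and 11.7% of all genes tested. In set B, 6 rose and 15 fell, against 10.9% and 11.9% of all genes. The members' shares were 8.20% risen and 24.6% fallen in set A and 9.84% and 24.6% in set B. Their median log2 fold change was 0.04 for set A and -0.08 for set B, beside -0.02 for all genes tested in each set. The kidneys of set A lay entirely above the controls for 4 members and entirely below for 16 (background 12.6% and 15.7%), and those of set B likewise for 4 and 16 (background 11.6% and 15.1%). Sets A and B were compared with the same 4 control kidneys. The number of rises depended on single kidneys. It was 2 in set A without control replicate 2, without control replicate 4 or without set A replicate 1 and 3 without set A replicate 3, and in set B it was 3 without control replicate 3, control replicate 4 or set B replicate 3 and 4 without control replicate 2 or set B replicate 4.

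The 61 genes together took 1.34% to 1.48% of all counts in the control kidneys, 0.925% to 1.25% for set A and 1.01% to 1.22% for set B, so the groups of ischemic kidneys lay below the controls without overlap. Hspa8, the constitutive cytosolic Hsp70, alone made up 32.9% to 40.1% of the members' counts in controls, 27.7% to 28.6% for set A and 22.8% to 33.6% for set B. Without Hspa8, a sum added after seeing the data, the other members took 0.835% to 0.995% of all counts in controls, 0.660% to 0.893% for set A and 0.738% to 0.883% for set B, and the groups overlapped. That remainder holds Hspa1a and Hspa1b, with summed levels of 101 to 642 CPM in controls, 398 to 2145 CPM for set A and 490 to 2134 CPM for set B. The overlap therefore does not show that the fall was limited to Hspa8. Per kilobase of the longest protein-coding transcript, Hspa8 had the highest mean level of the 61 in each group, followed by Hsp90ab1, the constitutive cytosolic Hsp90, and Hspa9, the mitochondrial Hsp70. Hspd1, the mitochondrial Hsp60, was in place 4 in the controls and in places 5 and 6 in sets A and B. Hspa1b moved from place 10 in the controls to place 4 in both ischemic sets, and Hspa1a from place 11 to place 7.

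**Figure D1:**
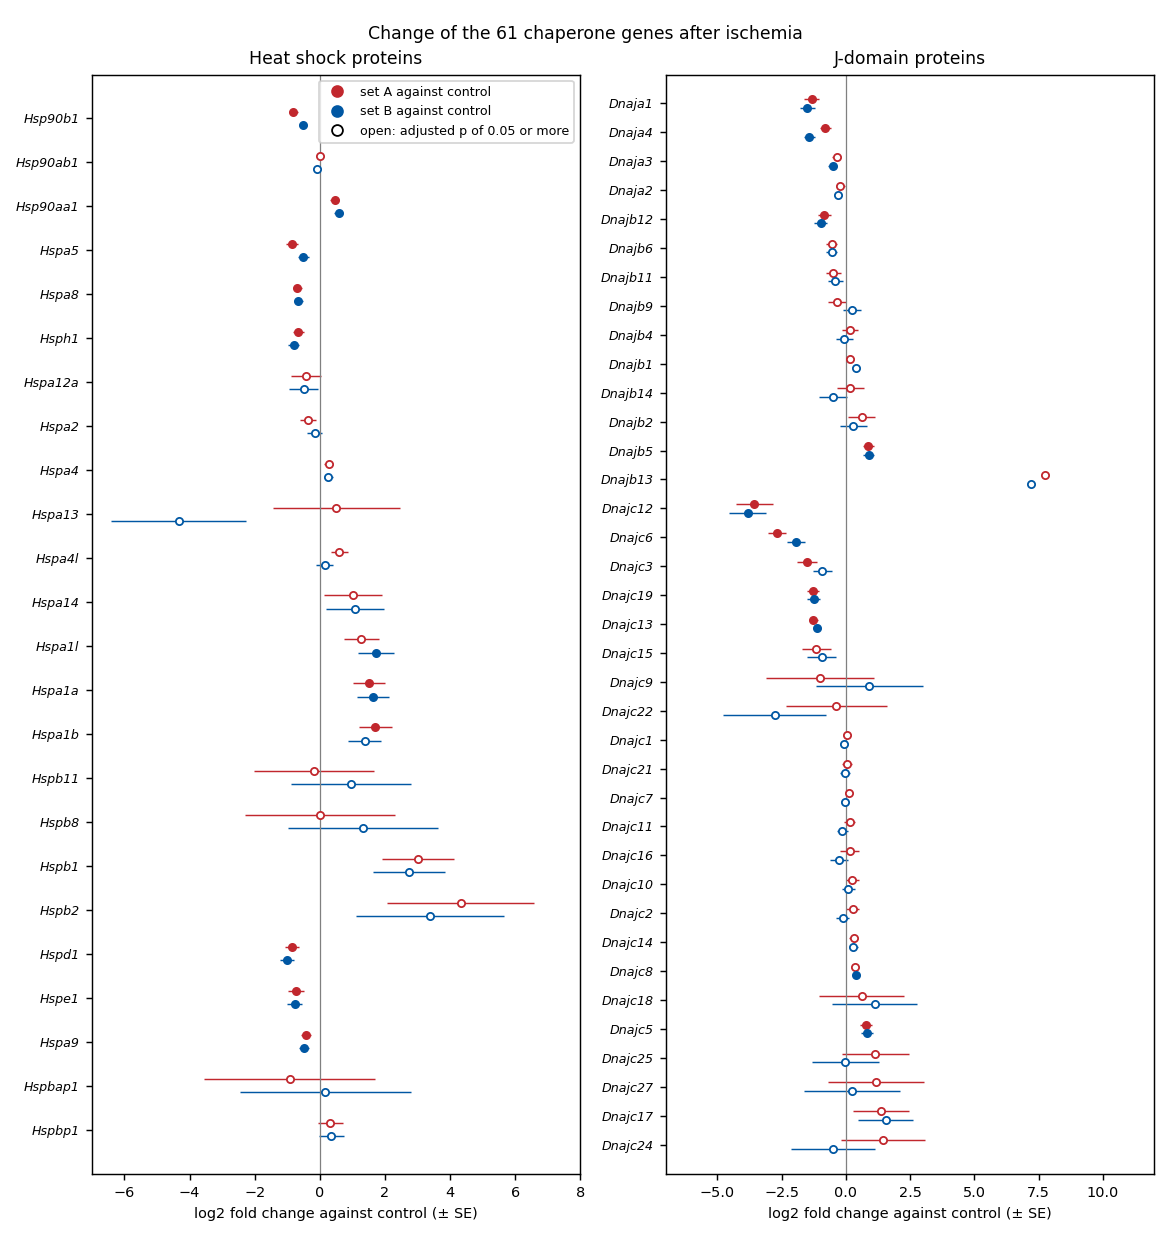
Log2 fold change against control (horizontal axis, ± SE) of the 61 genes, set A in red and set B in blue, with filled points where the adjusted p was below 0.05. Filled points on the left outnumber those on the right, 15 to 5 for set A and 15 to 6 for set B, and long bars belong to genes with few counts. Dnajb13 had no count in the controls, so its point has no SE and its fitted value is not a bound.

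The 3 Hsp90 genes went different ways: the inducible cytosolic gene rose, the constitutive cytosolic gene did not pass the test, and the ER gene fell. Hsp90aa1, the stress-inducible cytosolic Hsp90, stood at 158, 137, 179 and 138 CPM in the 4 control kidneys, at 197, 235, 200 and 204 CPM in set A and at 255, 258, 210 and 189 CPM in set B. All 8 ischemic kidneys were above all controls. The log2 fold change was 0.45 ± 0.14 (SE) in set A (edgeR adjusted p = 0.023) and 0.58 ± 0.14 in set B (edgeR adjusted p = 0.0044), a rise of 1.37 and 1.49 times on the linear scale. The call in set A was lost without control replicate 2, control replicate 4 or set A replicate 2, with adjusted p (edgeR) from 0.079 to 0.083.

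Hsp90ab1 stood at 2001, 1746, 1829 and 1670 CPM in controls, at 1652, 2047, 1895 and 1684 CPM in set A and at 1797, 1724, 1717 and 1616 CPM in set B. The groups overlapped throughout. The log2 fold change was 0.01 (95% interval -0.19 to 0.20) for set A and -0.08 (-0.28 to 0.12) for set B. Per length, Hsp90aa1 made up 5.68% to 7.0% of the transcripts of both cytosolic Hsp90 genes in control kidneys, 7.50% to 8.50% for set A and 8.25% to 10.3% for set B. Close to 47.5% of the 100-base windows of the Hsp90aa1 transcript also occur in another annotated gene, mostly in Gm12346, and how reads that fit several places were counted is not stated.

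Hsp90b1, the Hsp90 of the ER and a holder of the ER stress element shown above, stood at 662, 527, 584 and 465 CPM in controls, at 329, 349, 318 and 279 CPM in set A and at 366, 405, 458 and 344 CPM in set B. Every ischemic kidney was below every control. It fell by 0.81 ± 0.13 on the log2 scale in set A (edgeR adjusted p = 1.1e-04) and by 0.51 ± 0.13 in set B (edgeR adjusted p = 0.0072), and both calls held in each alternative tried.

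Of the 12 Hsp70 and Hsp110 genes, 2 rose (16.7%) and 3 fell (25%) in each set, against 10.5% and 11.7% of all genes in set A and 10.9% and 11.9% in set B. The falls were of the same 3 genes, Hspa8, Hspa5 and Hsph1, and the rises were of Hspa1a and Hspa1b in set A and of Hspa1a and Hspa1l in set B. Hspa8, which serves folding under normal conditions, stood at 4754, 4851, 5340 and 5692 CPM in controls, at 3354, 3487, 3190 and 2683 CPM in set A and at 3972, 3603, 3289 and 2232 CPM in set B. No ischemic kidney reached a control, and set B replicate 4 was the lowest. Hspa8 fell by 0.70 ± 0.14 on the log2 scale in set A (edgeR adjusted p = 8.4e-04) and by 0.66 ± 0.14 in set B (edgeR adjusted p = 0.0015).

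Hspa1a and Hspa1b are the nearly identical stress-inducible Hsp70 genes and lie side by side on chromosome 17 (GRCm38; Hspa1a at chr17:34969190-34972156 and Hspa1b at chr17:34956436-34959238, both on the minus strand). Hspa1a stood at 270, 218, 48.4 and 174 CPM in controls, at 841, 359, 653 and 160 CPM in set A and at 289, 224, 688 and 1004 CPM in set B. Hspa1b stood at 372, 305, 52.7 and 235 CPM in controls, at 1304, 704, 899 and 238 CPM in set A and at 316, 267, 792 and 1131 CPM in set B. Both genes were high in set A replicates 1 to 3 and in set B replicates 3 and 4, whereas set A replicate 4 and set B replicates 1 and 2 lay near or within the range of the controls, and control replicate 3 was the lowest of all. The groups therefore overlapped for both genes. The standard deviation of Hspa1a was 53.3% of the mean in controls, 60.2% for set A and 66.2% for set B.

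The log2 fold change of Hspa1a was 1.5 ± 0.49 in set A (edgeR adjusted p = 0.037) and 1.63 ± 0.49 in set B (edgeR adjusted p = 0.024). That of Hspa1b was 1.70 ± 0.51 in set A (edgeR adjusted p = 0.022) and 1.38 ± 0.51 in set B (edgeR adjusted p = 0.062), the latter not past the threshold. The two-sided exact permutation test of CPM, which cannot go below 0.0286 with 4 kidneys against 4, gave p = 0.114 and 0.0571 for Hspa1a and p = 0.0857 and 0.171 for Hspa1b in sets A and B. With the counts of both genes summed, a setting added after seeing the data, the log2 fold change was 1.62 in set A (edgeR adjusted p = 0.026) and 1.49 in set B (edgeR adjusted p = 0.040), and the exact permutation test of the summed CPM gave p = 0.114 and 0.143. The rise of Hspa1a in set A was lost in 5 of the 12 fits without 1 kidney (without control replicate 2, 3 or 4 or set A replicate 1 or 3, edgeR adjusted p 0.054 to 0.14) and with DESeq2 and the replicate block, and that in set B in 4 (without control replicate 3 or 4 or set B replicate 3 or 4, edgeR adjusted p 0.058 to 0.089). For Hspa1b, the call in set A was lost with DESeq2, without control replicate 4 and without set A replicate 1 (edgeR adjusted p 0.052 and 0.084), and in set B a call was gained without the low-count filter and without control replicate 1, set A replicate 4 or set B replicate 1 or 2 (edgeR adjusted p 0.035 to 0.050).

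Per length, the cytosolic Hsp70 transcripts (Hspa8, Hspa1a, Hspa1b, Hspa1l and Hspa2 together) shifted in make-up. Hspa1a and Hspa1b together were 9.88%, 8.05%, 1.53% and 5.53% of them in the 4 controls, 34.2%, 20.0%, 28.1% and 10.7% for set A and 11%, 9.97%, 26.7% and 42.3% for set B. Every ischemic kidney was above every control, by a narrow margin in set B replicate 2. The share of Hspa8 was 87.7% to 97.0% in controls, 63.9% to 86.1% for set A and 53.2% to 88.0% for set B, where set B replicate 2 overlapped the controls. This shift holds a fall of Hspa8 in every ischemic kidney and a high Hspa1a and Hspa1b level in 5 of the 8.

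**Figure D2:**
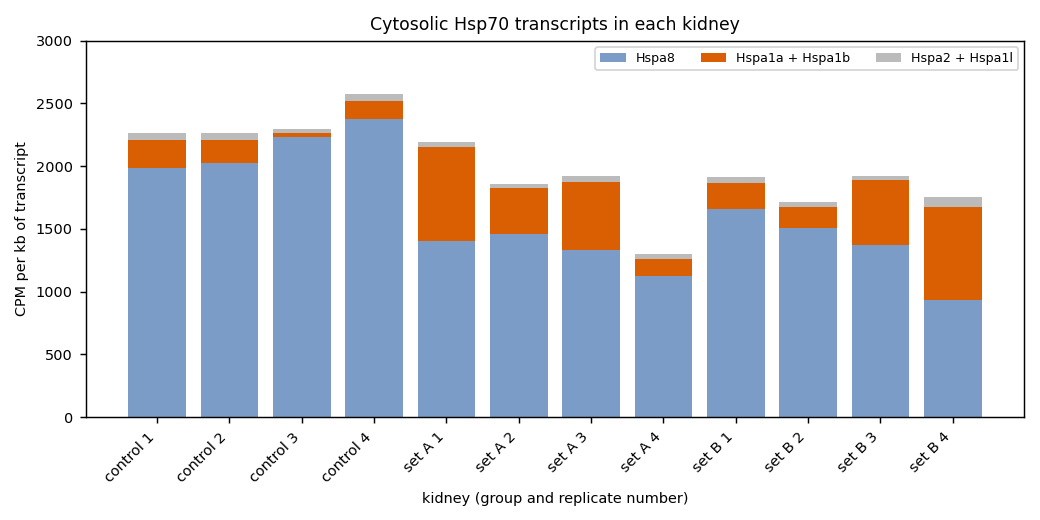
Level of cytosolic Hsp70 transcripts in each of the 12 kidneys, in CPM per kilobase of the longest protein-coding transcript (linear axis from 0), with Hspa8 in blue, Hspa1a plus Hspa1b in orange and Hspa2 plus Hspa1l in grey. The orange part is widest in set A replicates 1 and 3 and in set B replicates 3 and 4, and is 1.53% of the bar in control replicate 3.

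Hspa1l, a further Hsp70 gene beside Hspa1a that is best known from testis, stood at 5.23, 4.81, 1.35 and 2.09 CPM in controls, at 4.44, 6.42, 13.5 and 8.37 CPM in set A and at 7.91, 6.70, 13.2 and 16.7 CPM in set B. All kidneys of set B were above all controls. The log2 fold change was 1.28 ± 0.55 in set A (edgeR adjusted p = 0.12) and 1.72 ± 0.55 in set B (edgeR adjusted p = 0.032), and the call in set B was lost with the replicate block and without control replicate 3 or 4 or set B replicate 3 or 4 (edgeR adjusted p 0.082 to 0.10). Of the 100-base windows of its transcript, 70.8% also occur in another annotated gene, as do 56.5% for Hspa1a, 49.9% for Hspa1b and 63.4% for Hspa8. All shared windows of Hspa1l occur in Gm10501 and most of those of Hspa8 in Gm15459, while Hspa1a and Hspa1b share mostly with each other. Windows were matched on either strand, so overlapping loci count as well. The division of reads between each gene and those it shares windows with is uncertain. In all, 13 members shared 20% or more of their windows with another gene, among them also Dnajb6 (36.3%), Hspd1 (26.9%), Dnajc14 (24.6%), Dnaja1 (24.0%), Hspb2 (22.7%) and Hspe1 (22.4%), and the same uncertainty holds for their counts.

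Hspa5, the Hsp70 of the ER (BiP) and a holder of the ER stress element, stood at 735, 504, 619 and 545 CPM in controls, at 386, 311, 318 and 309 CPM in set A and at 367, 456, 587 and 286 CPM in set B. Set A lay wholly below the controls, and set B replicate 3 lay among them. It fell by 0.86 ± 0.18 on the log2 scale in set A (edgeR adjusted p = 0.0012) and by 0.50 ± 0.18 in set B (edgeR adjusted p = 0.047). The call in set B was near the threshold and was lost in 9 of the 12 fits without 1 kidney, all except those without control replicate 2, set A replicate 4 or set B replicate 3, with log2 fold changes from -0.56 to -0.36 and edgeR adjusted p from 0.054 to 0.17. It was also lost with RLE size factors, with the filter at 1 CPM and in the fit of only the 2 groups compared.

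Hsph1, an Hsp110 that exchanges the nucleotide of Hsp70, stood at 157, 122, 161 and 163 CPM in controls, at 79.3, 114, 99.6 and 88.6 CPM in set A and at 102, 86.8, 95.1 and 62.7 CPM in set B. The ischemic kidneys were all below the controls. It fell by 0.66 ± 0.17 on the log2 scale in set A (edgeR adjusted p = 0.0081) and by 0.80 ± 0.17 in set B (edgeR adjusted p = 0.0018). The related Hspa4 had 128 to 147 CPM in controls, 139 to 193 for set A and 143 to 175 for set B, and its log2 fold changes of 0.27 and 0.26 did not pass the test (edgeR adjusted p = 0.18 and 0.20).

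Neither Hspa4l (0.59 and 0.16 on the log2 scale) nor Hspa2 (-0.37 and -0.16) passed the test in either set. Hspa13, an Hsp70 of the secretory pathway, had at most 5.35 CPM and was at 0 in 4 of the 12 kidneys, so its fitted changes of 0.51 ± 2.0 and -4.34 ± 2.08 carry little information. Of the rest, Hspa12a and Hspa14 did not pass the test.

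**Figure D3:**
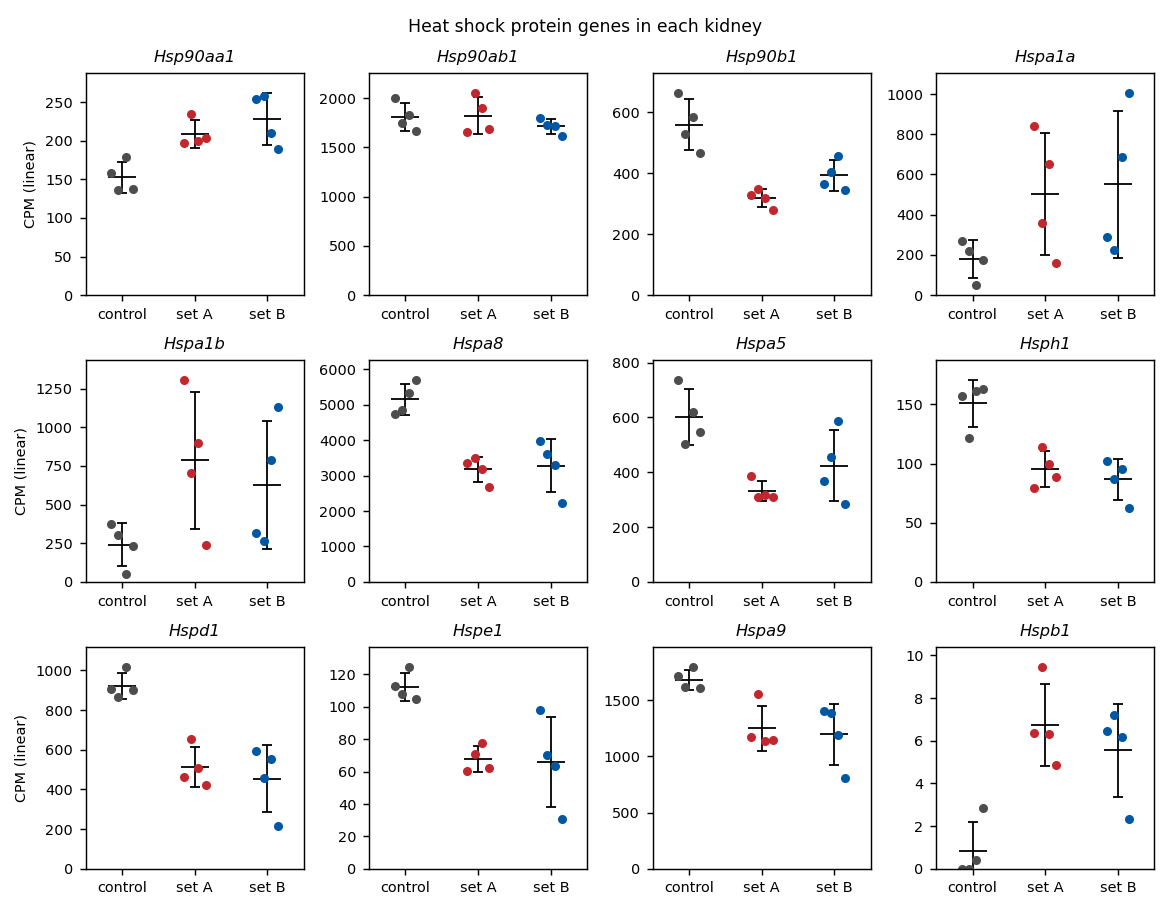
CPM (linear axis from 0) of 12 heat shock protein genes, with a point for each kidney and the mean ± SD (n = 4) for the control, set A and set B groups. Hsp90aa1 is higher and Hsp90b1, Hspa8, Hsph1 and the mitochondrial genes Hspd1, Hspe1 and Hspa9 are lower in all 8 ischemic kidneys, while Hspa1a and Hspa1b overlap between groups and spread from 48.4 to 1304 CPM.

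The 4 genes with small heat shock protein symbols stood at 9.45 CPM or lower in every kidney, and 0 of 4 passed the test in either set. Of all genes tested, 10.5% rose and 11.7% fell in set A and 10.9% rose and 11.9% fell in set B, so 0 of 4 says little. Hspb1, which encodes Hsp25 and binds actin as well as unfolded proteins, had the clearest values. It stood at 0, 0, 0.424 and 2.85 CPM in controls, at 6.38, 9.45, 6.30 and 4.88 CPM in set A and at 6.47, 7.21, 6.19 and 2.35 CPM in set B. All kidneys of set A and all but replicate 4 of set B were above the highest control. The log2 fold change was 3.02 ± 1.11 in set A (edgeR adjusted p = 0.077) and 2.74 ± 1.11 in set B (edgeR adjusted p = 0.11). Without control replicate 4 both passed the threshold, at 5.56 and 5.27 (edgeR adjusted p = 0.0041 and 0.0057), and so they did with limma. Of the 100-base windows of its transcript, 42.7% also occur in another gene, chiefly the pseudogene Hsp25-ps1.

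Hspb2, a small heat shock protein of muscle, had 10 counts or more in 5 kidneys, with 0 in 3 of the 4 controls and 4.28 CPM at most. Hspb8, which works with the cofactor Bag3, was at 0 in 6 of the 12 kidneys and reached 4.81 CPM in set B replicate 2. Hspb6 and Hspb7 did not have enough counts to enter the list. Cryab, the αB-crystallin, is a small heat shock protein whose symbol falls outside the rule. It was higher in every ischemic kidney, with 249, 203, 167 and 166 CPM in controls, 1198, 1139, 1275 and 951 CPM in set A and 960, 1664, 1264 and 648 CPM in set B, and rose by 2.54 ± 0.21 and 2.53 ± 0.21 on the log2 scale (edgeR adjusted p = 4.3e-08 and 4.8e-08). Its relative Cryaa did not pass the test.

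All 3 mitochondrial chaperone genes fell in both sets, and no ischemic kidney reached the lowest control for any of them. Among all genes tested, 11.7% (set A) and 11.9% (set B) fell, while 15.7% and 15.1% lay wholly below the controls. Hspd1, the Hsp60 that folds proteins inside a ring, stood at 904, 864, 1017 and 900 CPM in controls, at 461, 655, 509 and 423 CPM in set A and at 594, 457, 552 and 215 CPM in set B. It fell by 0.85 ± 0.22 on the log2 scale in set A (edgeR adjusted p = 0.0069) and by 1.02 ± 0.22 in set B (edgeR adjusted p = 0.0016), calls that held in each alternative tried.

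Hspe1, the Hsp10 lid of that ring, whose promoter holds the same element as that of Hspd1, stood at 113, 108, 125 and 105 CPM in controls, at 60.3, 71.1, 77.9 and 62.0 CPM in set A and at 98.3, 70.6, 63.7 and 30.7 CPM in set B. Set B replicate 1 was the ischemic kidney closest to the controls. Hspe1 fell by 0.73 ± 0.24 on the log2 scale in set A (edgeR adjusted p = 0.033) and by 0.77 ± 0.24 in set B (edgeR adjusted p = 0.024). With 1 kidney left out, the call in set A was lost without any 1 of the controls or of set A (edgeR adjusted p 0.050 to 0.11) and the call in set B without control replicate 1 or 3 or set B replicate 3 (0.051 to 0.056), and also in the fit of only the 2 groups compared. The 2 loci overlap at their starts on opposite strands, and the strand setting of the counting is not given.

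Hspa9, the mitochondrial Hsp70 that pulls proteins into the matrix, stood at 1711, 1620, 1795 and 1605 CPM in controls, at 1174, 1552, 1135 and 1148 CPM in set A and at 1401, 1382, 1189 and 810 CPM in set B. It fell by 0.43 ± 0.15 on the log2 scale in set A (edgeR adjusted p = 0.043) and by 0.49 ± 0.15 in set B (edgeR adjusted p = 0.019). The call in set A was lost in 7 of the 12 fits without 1 kidney, those without any control or without set A replicate 1, 3 or 4 (edgeR adjusted p 0.078 to 0.15), and with RLE size factors or the filter at 1 CPM, and that in set B without control replicate 1 (0.052). The proximal tubule markers given above were below the controls in the same kidneys as these 3 genes, and their part in this result was not tested.

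Set B replicate 4 was the lowest of the 12 kidneys for Hspa8, Hspa5, Hsph1, Hspd1, Hspe1, Hspa9, Dnaja3 and Dnajc6, and the highest for Hspa1a and Hspa1l. Without it, the set B calls of Hspa5, Dnaja3, Hspa1a and Hspa1l were lost, while Hspa8, Hsph1, Hspd1, Hspe1, Hspa9 and Dnajc6 still passed the test.

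Among the 37 J-domain genes, 2 rose and 8 fell in set A, and 3 rose and 8 fell in set B. That is 5.41% risen and 21.6% fallen in set A, against 10.5% and 11.7% of all genes tested, and 8.11% and 21.6% in set B, against 10.9% and 11.9%. The falls included cytosolic members of class A (Dnaja1, Dnaja4) and specialised members of class C. Dnaja1, a farnesylated partner of Hspa8, stood at 72.9, 77.8, 60.4 and 68.5 CPM in controls, at 17.5, 38.7, 40.7 and 13.6 CPM in set A and at 28.7, 24.2, 15.6 and 30.4 CPM in set B. It fell by 1.34 ± 0.30 on the log2 scale in set A (edgeR adjusted p = 0.0031) and by 1.5 ± 0.31 in set B (edgeR adjusted p = 0.0012), to below every control in all 8 ischemic kidneys.

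Dnaja4 stood at 94.2, 103, 74.6 and 83.7 CPM in controls, at 38.6, 61.9, 37.2 and 66.8 CPM in set A and at 27.9, 38.8, 29.9 and 36.3 CPM in set B. All ischemic kidneys lay below the controls. It fell by 0.80 ± 0.21 on the log2 scale in set A (edgeR adjusted p = 0.010, and 0.051 without set A replicate 1) and by 1.42 ± 0.21 in set B (edgeR adjusted p = 6.3e-05). Of the windows of its transcript, 51.0% also occur in the gene Wdr61, so these counts are uncertain.

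Dnaja3, a J-domain protein of the mitochondria, had 111 to 139 CPM in controls, 68.8 to 117 for set A and 65.6 to 111 for set B. Its log2 fold change was -0.36 ± 0.18 in set A (edgeR adjusted p = 0.19) and -0.52 ± 0.18 in set B (edgeR adjusted p = 0.049). The call in set B was lost in 10 of the 12 fits without 1 kidney, all but those without set A replicate 4 or set B replicate 3 (edgeR adjusted p 0.053 to 0.13), and also with RLE size factors or the filter at 1 CPM. Dnaja2, a cytosolic partner of Hsp70 and the Dnaja gene with the highest level per length, did not pass the test (-0.22 and -0.31 on the log2 scale).

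In class B, Dnajb5 rose and Dnajb12 fell in both sets. Dnajb5, a cytosolic member also found in the nucleus, stood at 35.8, 41.8, 52.3 and 29.3 CPM in controls, at 81.6, 69.9, 63.6 and 75 CPM in set A and at 53.9, 63.2, 92.8 and 85.2 CPM in set B. All ischemic kidneys exceeded all controls, set B replicate 1 by the least. The log2 fold change was 0.87 ± 0.21 in set A (edgeR adjusted p = 0.0050) and 0.89 ± 0.21 in set B (edgeR adjusted p = 0.0039), and both calls held in each alternative tried.

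Dnajb12, anchored in the ER membrane with its J domain in the cytosol, stood at 39.1, 38.2, 34.9 and 45.5 CPM in controls, at 25.7, 23.9, 14.8 and 23.5 CPM in set A and at 23.4, 13.5, 21.6 and 21.3 CPM in set B. It fell by 0.84 ± 0.25 on the log2 scale in set A (edgeR adjusted p = 0.020) and by 0.98 ± 0.25 in set B (edgeR adjusted p = 0.0072). Set A lost this call without control replicate 4 or set A replicate 3 (edgeR adjusted p = 0.071 and 0.082). No kidney of either set reached the lowest control.

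Dnajb1 (Hsp40), the inducible partner of Hspa1a, stood at 130, 104, 126 and 96.0 CPM in controls, at 138, 138, 115 and 120 CPM in set A and at 162, 129, 172 and 137 CPM in set B. The groups overlapped, and the log2 fold change was 0.16 ± 0.15 in set A (edgeR adjusted p = 0.54) and 0.39 ± 0.15 in set B (edgeR adjusted p = 0.064). With DESeq2, RLE size factors or the filter at 1 CPM it passed the threshold in set B.

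Dnajb6, a suppressor of protein aggregates with the longer heat shock element in its promoter, stood at 39.9 to 52.4 CPM in controls, 21.7 to 36.4 CPM for set A and 25.3 to 38.8 CPM for set B. All ischemic kidneys were below the controls, but its log2 fold change of -0.56 ± 0.23 in each set did not pass the test (edgeR adjusted p = 0.087 in both, and 0.042 in set B without set B replicate 2). The ER members Dnajb9 and Dnajb11, which work with Hspa5, and the cytosolic Dnajb4 did not pass the test. Dnajb9 was -0.36 ± 0.35 and 0.22 ± 0.35, Dnajb11 -0.49 ± 0.30 and -0.42 ± 0.30, and Dnajb4 0.15 ± 0.32 and -0.06 ± 0.32 on the log2 scale in sets A and B.

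In class C, of 23 genes, 1 rose (4.35%) and 5 fell (21.7%) in set A, and 2 rose (8.70%) and 4 fell (17.4%) in set B, beside the shares of all genes given above. The furthest fall among the members that passed the test was that of Dnajc12, a partner of Hsp70 for the aromatic amino acid hydroxylases. It stood at 42.6, 44.1, 43.9 and 47.3 CPM in controls, at 2.32, 7.23, 0 and 5.72 CPM in set A and at 4.31, 3.67, 2.85 and 1.65 CPM in set B. No ischemic kidney came near the controls. It fell by 3.56 ± 0.72 on the log2 scale in set A (edgeR adjusted p = 0.0022) and by 3.82 ± 0.73 in set B (edgeR adjusted p = 0.0014), which makes the mean of the controls 11.7 and 14.3 times those of the sets.

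Dnajc6, the auxilin that sends Hsp70 to clathrin coats, stood at 33.6, 48.6, 42.2 and 45.5 CPM in controls, at 6.38, 6.12, 8.13 and 5.72 CPM in set A and at 16.4, 14.0, 9.81 and 3.93 CPM in set B. It fell by 2.69 ± 0.35 on the log2 scale in set A (edgeR adjusted p = 1.5e-05) and by 1.94 ± 0.35 in set B (edgeR adjusted p = 4.0e-04). The ischemic kidneys lay wholly below the controls, and set B spread more widely than set A.

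Dnajc13, which acts on clathrin at endosomes, stood at 458, 459, 334 and 375 CPM in controls, at 146, 226, 153 and 149 CPM in set A and at 237, 161, 195 and 150 CPM in set B. It fell by 1.27 ± 0.17 on the log2 scale in set A (edgeR adjusted p = 1.6e-05) and by 1.13 ± 0.17 in set B (edgeR adjusted p = 6.4e-05). The highest ischemic kidney was below the lowest control. Dnajc19, a J-domain protein of the mitochondrial import motor, was picked after its values were seen, outside the naming rule. It had 63.6 to 81.3 CPM in controls, 19.5 to 48.9 for set A and 27.2 to 37.5 for set B, and fell by 1.29 ± 0.25 and 1.26 ± 0.25 on the log2 scale (edgeR adjusted p = 6.2e-04 and 7.9e-04).

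Dnajc3, the ER-stress-inducible p58IPK and the remaining holder of the ER stress element, stood at 16.7, 23.3, 22.4 and 20.3 CPM in controls, at 4.22, 12.3, 5.88 and 6.50 CPM in set A and at 9.90, 10.2, 14.9 and 8.31 CPM in set B. Every ischemic kidney was below the controls. It fell by 1.52 ± 0.37 on the log2 scale in set A (edgeR adjusted p = 0.0059), and the log2 fold change of -0.93 ± 0.37 in set B did not pass the test (edgeR adjusted p = 0.086), except in the fit of only the 2 groups compared. The 3 genes with the ER stress element thus had log2 fold changes of -0.81, -0.86 and -1.52 in set A and of -0.51, -0.50 and -0.93 in set B.

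Dnajc5, the cysteine string protein of secretory vesicles, stood at 17.5, 15.4, 25.9 and 16.1 CPM in controls, at 36.8, 21.2, 32.1 and 38.2 CPM in set A and at 32.4, 35, 32.7 and 31.8 CPM in set B. All of set B was above the controls, and set A replicate 2 was not. The log2 fold change was 0.78 ± 0.25 in set A (edgeR adjusted p = 0.030) and 0.82 ± 0.25 in set B (edgeR adjusted p = 0.023). Leaving out 1 kidney ended the call in set A without control replicate 1, 2 or 4 or set A replicate 1, 3 or 4 (edgeR adjusted p 0.061 to 0.10), and that in set B without control replicate 1, 2 or 4 or set B replicate 2 (0.058 to 0.079).

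Dnajc8, a nuclear member associated with splicing and the Dnajc gene with the highest level per length, had 192 to 221 CPM in controls, 243 to 278 for set A and 204 to 306 for set B. The log2 fold change was 0.34 ± 0.13 in set A (edgeR adjusted p = 0.071) and 0.40 ± 0.13 in set B (edgeR adjusted p = 0.035). In set B the call was lost in 9 of the 12 fits without 1 kidney, all but those without set A replicate 1 or 2 or set B replicate 4 (edgeR adjusted p 0.051 to 0.13), as well as with no low-count filter and in the fit of only the 2 groups compared. In set A a call was gained without set B replicate 4 (edgeR adjusted p = 0.025) and in 4 other alternatives.

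**Figure D4:**
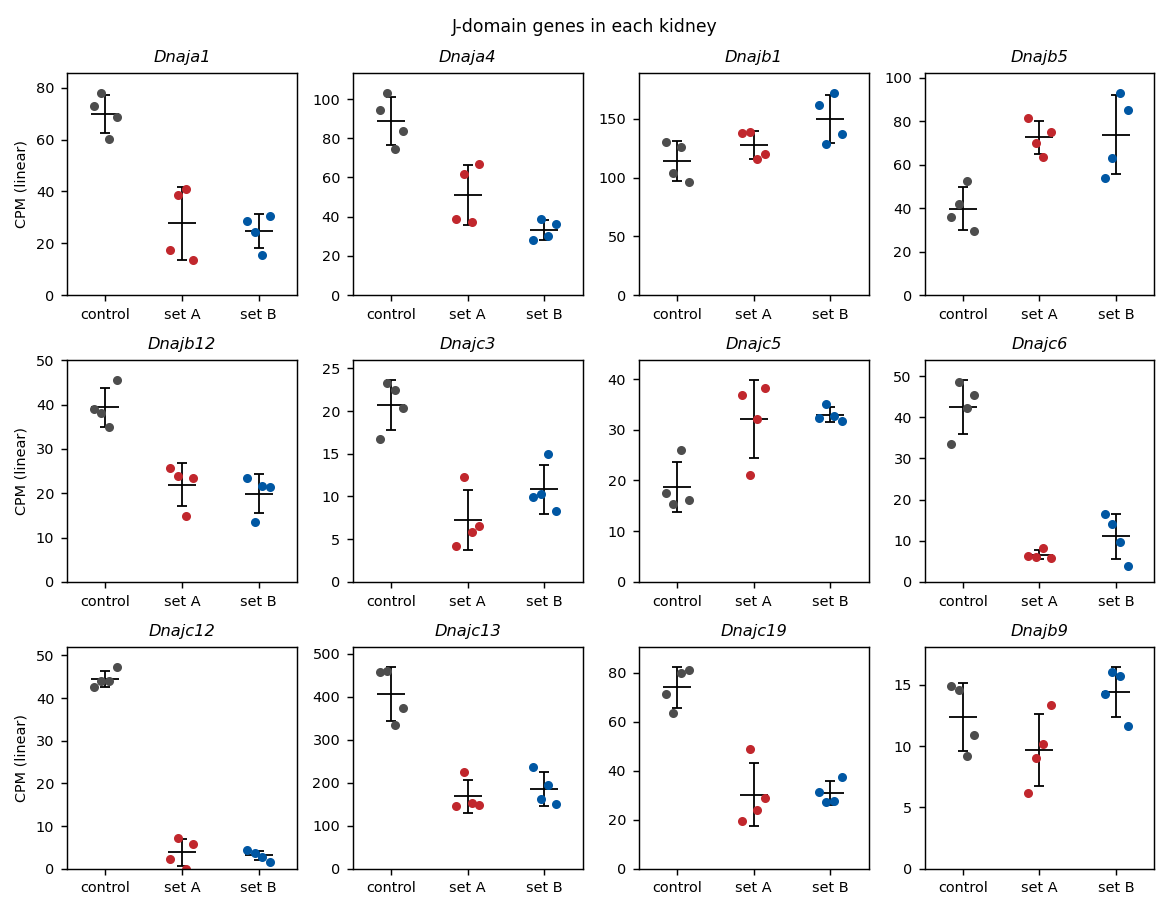
CPM (linear axis from 0) of 12 J-domain genes, with a point for each kidney and the mean ± SD (n = 4) for the control, set A and set B groups. Dnaja1, Dnaja4, Dnajb12, Dnajc3, Dnajc6, Dnajc12, Dnajc13 and Dnajc19 are lower and Dnajb5 is higher in all 8 ischemic kidneys than in any control, while Dnajb1 and Dnajb9 overlap.

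Between the ischemic sets, 0 of the 61 genes passed the threshold with edgeR, against 1 of all genes tested (0.00857%), and 0 passed with DESeq2 or limma. At an unadjusted p below 0.05 there were 3 members with edgeR, against 587 of all genes (5.03%), and no member separated the sets without overlap (background 1.29% higher and 1.32% lower in set B). The 3 were Dnaja4, lower in set B by 0.62 on the log2 scale (95% interval of the difference -1.04 to -0.20), Hsp90b1, higher by 0.30 (0.04 to 0.56), and Dnajc6, higher by 0.74 (0.06 to 1.43). For Hspa1a the interval of set B against set A ran from -0.84 to 1.09 and for Hspa8 from -0.23 to 0.31, and a difference anywhere within these intervals remains possible.

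The other genes of the chaperone system were read from lists of cofactors and related chaperones, beside all genes tested, of which 10.5% rose and 11.7% fell in set A and 10.9% rose and 11.9% fell in set B. In the heat shock factor list, 0 of the 3 genes tested (of 6 listed) passed the test, and Hsf1, the main stress-activated factor, had log2 fold changes of 0.25 ± 0.16 and 0.11 ± 0.16. Among 12 nucleotide exchange factors and other Hsp70 cofactors, 1 rose (8.33%) and 3 fell (25%) in set A and 1 rose (8.33%) and 2 fell (16.7%) in set B. Bag3, a stress-inducible exchange factor, stood at 150 to 164 CPM in controls, at 208 to 294 CPM in set A and at 219 to 295 CPM in set B, with log2 fold changes of 0.74 ± 0.14 and 0.70 ± 0.14 (edgeR adjusted p = 4.9e-04 and 8.4e-04). St13, which stabilises Hsp70 with its client, fell by 0.65 and 0.57, and Sil1, the exchange factor of Hspa5, by 0.75 and 1.14 on the log2 scale. The call of Sil1 in set A was lost without any control and without set A replicate 3 or 4 (edgeR adjusted p 0.050 to 0.079).

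Of 20 Hsp90 cochaperones, 1 rose and 1 fell in set A (5.0% each) and 1 rose (5.0%) and 3 fell (15%) in set B, with Unc45a, a chaperone of myosin, rising by 0.82 and 0.67 and Fkbp4 falling by 0.61 and 0.64 on the log2 scale. In the TRiC chaperonin, which folds actin and tubulin, 4 of 8 subunits rose in set A and 1 in set B (12.5%, near the 10.9% of all genes), with Cct3 at 0.62 ± 0.15 and 0.51 ± 0.15, the latter not past the threshold without control replicate 1 or 4 or set B replicate 1 or 2 (edgeR adjusted p 0.056 to 0.079). Over all 8 lists, 4 genes rose in set B, but 7 did with DESeq2 or without set B replicate 4. Of 4 prefoldin subunits tested, 0 passed the test. The difference between the sets was not past the threshold for any gene named here.

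The ER folding and ER-associated degradation list had 8 of 19 tested genes lower in set A (42.1%, against 11.7% of all genes) and 10 lower in set B (52.6%, against 11.9%), with 0 higher in either and a median of -0.62 and -0.64 on the log2 scale. Herpud1, an ER stress target in degradation, stood at 207, 191, 176 and 259 CPM in controls, at 39.1, 55.1, 55.2 and 55.4 CPM in set A and at 47.9, 54.2, 55.9 and 60.8 CPM in set B, a fall of 2.02 ± 0.16 and 1.93 ± 0.16 on the log2 scale (edgeR adjusted p = 3.1e-08 and 6.2e-08). The lectin chaperone Calr fell by 1.03 and 0.68, the disulfide isomerase Pdia3 by 1.06 and 0.93, and Edem1, which directs glycoproteins to degradation, by 1.0 and 1.16. Among 12 further mitochondrial chaperones and proteases, 4 fell with set A (33.3%), 5 fell with set B (41.7%) and 0 rose. Trap1, the mitochondrial Hsp90, fell by 1.32 and 1.52, Clpx, the unfolding subunit of a matrix protease, by 1.32 and 1.37, Spg7 by 0.62 and 0.65 and Lonp1 by 0.42 and 0.62 on the log2 scale. For Spg7 the call was lost in set A without any control or without set A replicate 1 or 3 (edgeR adjusted p 0.059 to 0.15) and in set B without control replicate 2, 3 or 4 or set B replicate 1 or 3 (0.052 to 0.088). For Lonp1 it was lost in set A in 10 alternatives, among them the replicate block and leaving out control replicate 2, 3 or 4 or set A replicate 1, 3 or 4 (edgeR adjusted p 0.056 to 0.14).

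**Figure D5:**
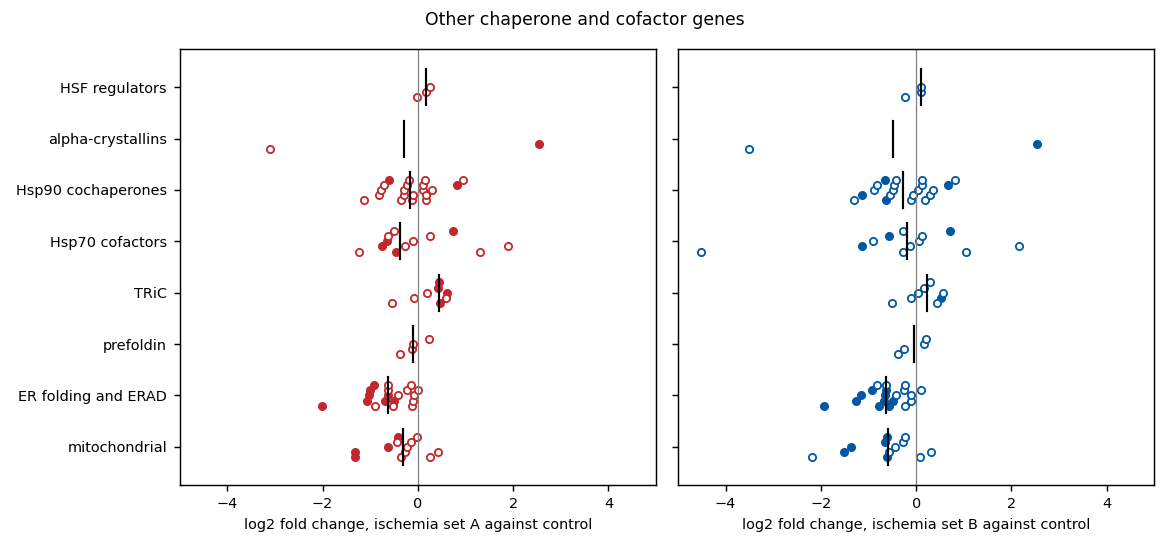
Log2 fold change against control (horizontal axes, set A left, set B right) of the tested genes in 8 lists of related chaperones and cofactors, filled where the adjusted p was below 0.05, with a black line at each list's median. Filled points of the ER and mitochondrial lists lie only to the left of 0, and those of TRiC only to the right, 4 in set A and 1 in set B.

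Markers of other cell types were read in the same way. Of 6 smooth muscle and pericyte markers, 2 rose in each set (sums of 675 to 917 CPM in controls, 963 to 1973 for set A and 1004 to 1482 for set B), of 4 podocyte markers, 2 rose in each set, and of 5 endothelial markers tested, 0 passed. Of 5 leukocyte markers tested, 2 fell in each set, with sums of 44.7 to 67.3 CPM in controls, 9.45 to 26.0 for set A and 13.2 to 35.6 for set B and with S100a8 at 0 in all kidneys. Of 4 thick ascending limb markers, 1 passed the test and fell in each set, and only 1 lay wholly below the controls. The medians over these markers, on the log2 scale, were -0.60 (set A) and -0.36 (set B). Their summed level was 1628 to 1713 CPM in controls, 285 to 392 CPM for set A and 269 to 778 CPM for set B. The sums did not overlap with the controls, but a sum weighs abundant markers most and does not show that all 4 fell. Of 6 distal and collecting duct markers, 3 fell in set A and 2 in set B, with sums of 1393 to 1937 CPM in controls, 903 to 1404 for set A and 805 to 1370 for set B. Markers of ciliated and germ cells and of blood, fat and adrenal tissue summed to at most 5.55 CPM, with Prm1, Tnp1, Hba-a1, Adipoq, Plin1 and Cyp11b1 at 0. The part of these cells in the chaperone values was not tested.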

How the data were processed

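RNA of 12 kidneys was sequenced by the authors from stranded mRNA libraries, mapped to mm10 with STAR after FastQC and counted per gene with HTSeq; versions, annotation release, strand setting and treatment of multiply mapped reads are not given in the sources used here. The deposited values are raw counts of 23420 genes (15367342 to 44793350 per kidney). Genes were filtered by edgeR 4.0.16 in R 4.3.3 (minimum count 10, minimum total 15), scaled by TMM and fitted in 1 model with 3 group coefficients. Quasi-likelihood F-tests were two-sided, with SE and 95% Wald intervals from the model and Benjamini-Hochberg adjustment over the 11664 genes tested. CPM of single genes were also compared with two-sided exact permutation tests (SciPy 1.17.1). Gene positions, transcript lengths and windows of 100 bases are from GENCODE annotation of GRCm38, promoters from RefSeq. Depth limits low genes: 15 members had a kidney with 3 counts or fewer.

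The members, gene lists and marker lists were chosen with earlier results of these data known. The genes named were a fixed set of well-known members, up to 3 rises and 3 falls per class past the threshold and without overlap, the 3 smallest p-values between the sets, the 2 highest levels per class by mean CPM, and up to 4 genes per related list. Tried besides were DESeq2 1.42.0, size factors by RLE (relative log expression), fits with no low-count filter or keeping genes above 1 CPM in 4 kidneys or more, a fit of the 2 groups alone, a block for replicate number, limma-trend (limma 3.58.1, prior count 2) and leaving out each kidney. The labels name no batch, and nothing says whether kidneys of a group were processed together. The p-values weigh group differences against the spread between these kidneys only. A difference in processing between groups, if there was one, could not be told apart from the group difference.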

Additional observations from a re-analysis of the deposited data

Results flagged for a closer look

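For 36 named members, each group of 4 kidneys was checked for a kidney whose gap to the nearest other exceeded Dixon's 95% critical share of the group's range, which chance alone meets in about 1 of 20 groups. Of 108 groups, 10 met it. Set A replicate 2 was high for Hsp90aa1 (235 CPM, next 204), Hspa9 (1552, next 1174) and Dnajc13 (226, next 153). Set A replicate 1 was high for Hspa5 (386, next 318). Control replicate 3 was low for Hspa2 (82.6, next 135), and control replicate 2 was low for Hsph1 (122, next 157). Control replicate 4 was high for Hspb1 (2.85, next 0.424) and Hspb2 (0.392, others 0). In set B, replicate 1 was high for Hspb2 (4.28, next 0.0632) and replicate 2 for Hspa13 (0.253, others 0).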

How the results depend on the processing

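Falls numbered 12 to 15 for set A and 11 to 15 for set B over the fits without 1 kidney. Rises numbered 2 to 6 for set A and 3 to 6 for set B over these fits, and members with an unadjusted p below 0.05 between the sets were 1 to 4, or 5 without the low-count filter. With the replicate number as a block, rises and falls were 4 and 15 in set A and 5 and 15 in set B, with 0 members called and 2 at an unadjusted p below 0.05 between the sets. Same-numbered kidneys deviated with a correlation of -0.055 to 0.045, and 2 of 12 correlated best with their own number, so the numbers were not read as pairs. With DESeq2, rises in set B were 8. In the related lists together, settings chosen after seeing the data gave 3 to 7 rises in set B without 1 kidney and 7 with DESeq2, beside 4. For single named members, 1423 alternative values were computed. Direction turned in 25 of them, over 7 values that did not pass the test. Hsp90ab1 in set A was -0.012 without the low-count filter and -0.0564 to 0.0785 over the fits without 1 kidney. Hspb8 in set A was -0.00057 without the filter, -1.10 with the block and -0.58 to 1.32 without 1 kidney, and Hspa13 in set A was -0.79 with the block and -0.87 to 1.90 without 1 kidney. Without 1 kidney, Hspa4l in set B was -0.0333 to 0.26, Hspb2 in set B -2.06 to 7.84, Dnajb4 in set A -0.0205 to 0.45 and in set B -0.24 to 0.22. Of calls, 92 alternative values lost and 19 gained one, without a change of direction. The cause was not tested. Low counts limit the genes with small heat shock protein symbols and other members such as Dnajb13.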

Other observations

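The ratio of Hspa1b to Hspa1a counts, a comparison chosen after the values were seen, was 1.38, 1.40, 1.09 and 1.35 in control kidneys, 1.55, 2.0, 1.38 and 1.48 in set A and 1.09, 1.19, 1.15 and 1.13 in set B. Set A lay wholly above set B. As the ratio was picked for its values, no test is given. The ratio is of counts, the genes share much of their sequence, and how shared reads were counted is not stated.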
